A study of Mus musculus with 6 samples.

Results

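Complex I (NADH:ubiquinone oxidoreductase) is the largest enzyme of the respiratory chain, and the genes described here are the 46 genes of the mouse nuclear genome in the deposited tables whose symbol begins with Nduf, out of 22488 genes listed. They comprise 36 structural subunits, 8 assembly factors (Ndufaf1 to Ndufaf8) and 2 genes that carry the family name but are set apart, Ndufa4 and Ndufa4l2. Every symbol matched the Entrez identifier of the same gene in the mouse reference (GRCm38.p6), and the subunit gene Ndufb1 was not analysed here. RNA from whole livers was compared between 3 LPS and 3 control samples of male wild-type C57BL/6 mice aged 6 to 8 weeks. All mice were fasted for 16 h. The LPS group was injected with lipopolysaccharide, a cell wall component of Gram-negative bacteria, into the abdominal cavity at 6 mg/kg, and the control group received 200 µl of the salt buffer HBSS by that route, although another label field of the controls gives no treatment. How long after injection the livers were taken is not stated in the labels. The series asks whether LPS lowers PPAR signalling and lipid droplet storage in liver, and complex I is where much of the NADH from fatty acid oxidation is consumed.

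Complex I takes electrons from NADH, passes them along a chain of iron-sulfur clusters to ubiquinone, and uses the energy to pump protons out of the mitochondrial matrix. Its matrix arm consists of the N module, which oxidises NADH, and the Q module, which reduces quinone, and its membrane arm holds the proton pumps. The 7 nuclear core subunits carry the flavin and the iron-sulfur clusters, the core of the membrane arm is encoded by mitochondrial DNA, and 29 further structural genes in these tables encode supernumerary subunits that surround and stabilise the core. Assembly factors help to build the enzyme but are absent from the finished complex. Hepatocytes are rich in mitochondria and use complex I for the oxidation of fatty acids and amino acids.

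The libraries held 11488525 to 20282004 counted reads. Levels are given as CPM, reads counted for a gene after each library is brought to the same total, in the order of replicates 1, 2 and 3 of each group. A log2 fold change compares LPS with control livers, is positive where LPS is higher and comes with its standard error (SE). Adjusted p values are from edgeR over the 12078 genes with enough counts to be tested. A gene rose or fell where the adjusted p was under 0.05. Hepatocyte markers were abundant in both groups, with summed levels of 73460 to 100156 CPM in LPS livers and 117704 to 130269 CPM in control livers, and of 10 such markers 8 fell and 1 rose. All 5 tested of 8 neutrophil markers rose, with sums of 149 to 188 CPM in LPS livers and 4.05 to 7.54 CPM in control livers, and 4 of 5 tested monocyte markers rose (63.5 to 76.2 CPM in LPS livers, 5.46 to 10 CPM in control livers). Of 8 Kupffer cell and macrophage markers 6 fell and 1 rose (58.9 to 92.5 CPM in LPS livers, 248 to 268 CPM in control livers), and of 4 tested cholangiocyte markers 3 rose and 1 fell (117 to 138 CPM in LPS livers, 19.4 to 32.3 CPM in control livers). Sinusoidal endothelial and stellate cell markers each had 3 that fell and 1 that rose of 6, erythroid markers 1 that fell and 2 that rose of 5, B cell markers 2 that fell of 5, and T and NK cell markers no call among 3 tested. Beside all these marker counts, 31.0% of all tested genes fell and 31.3% rose. Adipocyte markers summed to 0.682 to 0.998 CPM in LPS livers and 0.973 to 2.05 CPM in control livers, with Lep at 0 in all 6 libraries. The part of these cell types in the changes below was not tested, and in whole tissue fewer cells of a type and less RNA per cell cannot be told apart.

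Most structural subunits of complex I fell in LPS livers. Of 36 structural genes, all tested, 27 fell, 9 did not pass the threshold and 0 rose with edgeR, where 31.0% of all tested genes fell and 31.3% rose (62.3% in either direction). None had a positive value at an unadjusted p under 0.05, and DESeq2 called 26 lower and 0 higher. Every one of the 36 fitted changes was negative, against 5973 of 12078 over all tested genes, and the sign changed for 3 of them (Ndufs4, Ndufa2 and Ndufa1) in fits that left out 1 library. The median log2 fold change was -0.55 for the structural subunits and 0.01 for all tested genes. The falls were of unequal size, running from -1.60 for Ndufs7 to -0.04 for Ndufs4, and 8 subunits fell at least 2-fold (18.1% of all tested genes did). Summed over the 36 genes, the level was 2200, 1938 and 2105 CPM in LPS livers, against 3301, 3256 and 2837 CPM in control livers, or 66.5% of the control mean. In 24 of the 36 genes all LPS libraries lay below all control libraries, an arrangement seen in 33.4% of all tested genes.

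**Figure D1:**
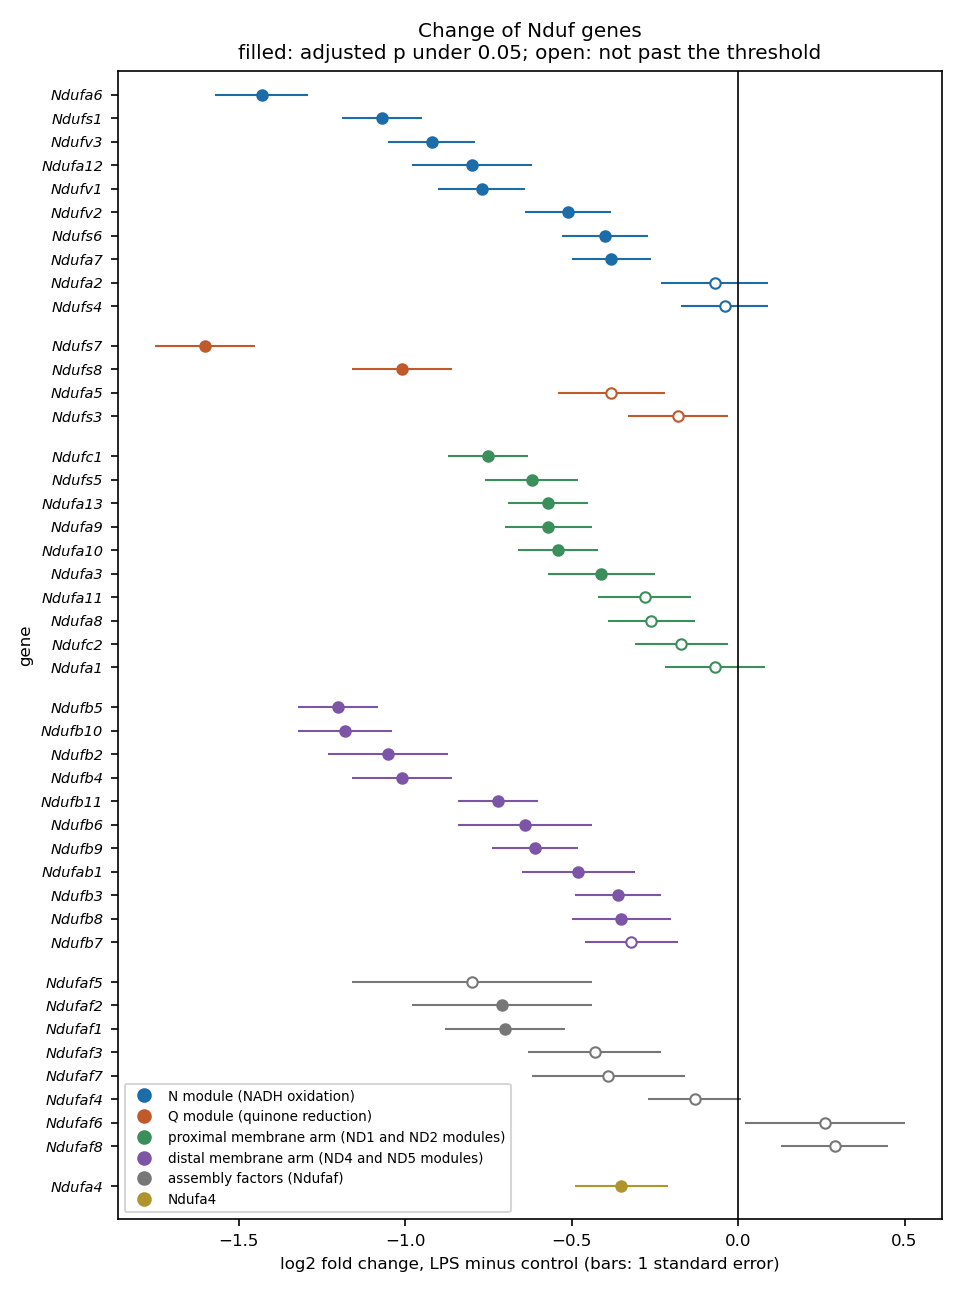
Log2 fold change (LPS minus control, horizontal axis) of the tested Nduf genes described by name, with 1 standard error. Points are grouped by the part of complex I to which the gene lists used here assign the protein. Filled points passed the adjusted p threshold of 0.05 and open points did not. The structural subunits shown lie left of 0, from -1.60 to -0.04, and 2 assembly factors lie right of it without passing the threshold.

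Within the Q module, where the last iron-sulfur cluster hands electrons to ubiquinone, the core subunits changed by very different amounts. Ndufs7 carries that last cluster (chromosome 10, 80249105 to 80256794) and had 39.4, 30.4 and 34.1 CPM in LPS livers, against 126, 97.9 and 91.3 CPM in control livers. It fell to 32.9% of the control level (-1.60 on the log2 scale, SE 0.15, adjusted p = 7.426e-07), the largest fall among the tested Nduf genes. Ndufs8, which carries further clusters on the path to quinone (chromosome 19, 3908863 to 3912774), had 30.7, 26.3 and 37.7 CPM in LPS livers and 72.4, 60.6 and 58.2 CPM in control livers (-1.01, SE 0.15, adjusted p = 5.157e-05). Groups of both genes were well apart. Ndufs3, a scaffold of the module that carries no cluster (chromosome 2, 90894627 to 90904721), had 61.6, 46.2 and 69.6 CPM in LPS livers and 74.7, 59.7 and 66.2 CPM in control livers. Its groups overlapped, and its change of -0.18 (SE 0.15, adjusted p = 0.335) did not pass. The supernumerary Q module subunit Ndufa5 stood at the threshold (-0.38, SE 0.16, adjusted p = 0.0502). It passed the threshold in 9 of the 14 other settings tried.

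In the N module, the tip of the matrix arm, 8 of 10 genes fell, where 31.0% of all tested genes fell. Ndufs1, the largest subunit, with several iron-sulfur clusters (chromosome 1, 63143592 to 63176822), had 59.4, 53.9 and 56.0 CPM in LPS livers, against 123, 112 and 119 CPM in control livers (-1.07, SE 0.12, adjusted p = 2.876e-06). Ndufv1, which binds NADH and the flavin that first accepts its electrons (chromosome 19, 4007499 to 4012755), had 110, 112 and 130 CPM in LPS livers and 222, 184 and 196 CPM in control livers (-0.77, SE 0.13, adjusted p = 1.292e-04). For Ndufv2, the iron-sulfur partner of Ndufv1 (chromosome 17, 66078795 to 66101559), the values were 83.7, 65.5 and 71.2 CPM in LPS livers and 109, 109 and 96.5 CPM in control livers (-0.51, SE 0.13, adjusted p = 0.00342). The LPS and control libraries did not overlap for any of these 3 catalytic subunits. Ndufa6, a small supernumerary subunit of the LYR family that binds the acyl carrier protein (chromosome 15, 82350139 to 82354291), had 57.4, 55.1 and 54.7 CPM in LPS livers and 166, 164 and 121 CPM in control livers. At -1.43 (SE 0.14, adjusted p = 9.709e-07) it was the second largest of these falls. The other N module genes that fell were Ndufv3 (-0.92), Ndufa12 (-0.80), Ndufs6 (-0.40) and Ndufa7 (-0.38). Both of the last calls ended without LPS replicate 2, and that of Ndufs6 also without control replicate 2.

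The N module also held 2 genes that did not pass. Ndufs4, whose loss causes a fatal brain disease in mice (chromosome 13, 114287795 to 114388094), had 70.8, 55.8 and 72.6 CPM in LPS livers and 73.3, 66.0 and 65.7 CPM in control livers. Ndufa2, a subunit with a thioredoxin-like fold (chromosome 18, 36742332 to 36744587), had 139, 126 and 102 CPM in LPS livers and 130, 152 and 105 CPM in control livers. Groups overlapped for both. Their changes were -0.04 (SE 0.13, adjusted p = 0.803) for Ndufs4 and -0.07 (SE 0.16, adjusted p = 0.695) for Ndufa2, and each changed sign in 2 of the fits that leave out a library. Ndufa2 was called lower in the fit with offsets for GC content and transcript length, and Ndufs4 was called in no setting.

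Ratios within a library do not depend on how libraries are scaled, and they show the unequal change. A ratio of counts does not remove effects of GC content or transcript length that differ between libraries. These pairs were chosen after their values were seen, each a gene with a large fall over one that did not pass. Their separation follows from that choice. The count of Ndufs7 over that of Ndufs4 was 0.557, 0.545 and 0.469 in LPS livers, against 1.73, 1.48 and 1.39 in control livers. Ndufs7 over its Q module neighbour Ndufs3 was 0.640, 0.659 and 0.489 in LPS livers and 1.69, 1.64 and 1.38 in control livers. For Ndufa6 over Ndufa2 the ratio was 0.412, 0.437 and 0.534 in LPS livers and 1.28, 1.08 and 1.15 in control livers. In each pair the ratio was below 1 in all 3 LPS libraries and above 1 in all 3 control libraries.

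**Figure D2:**
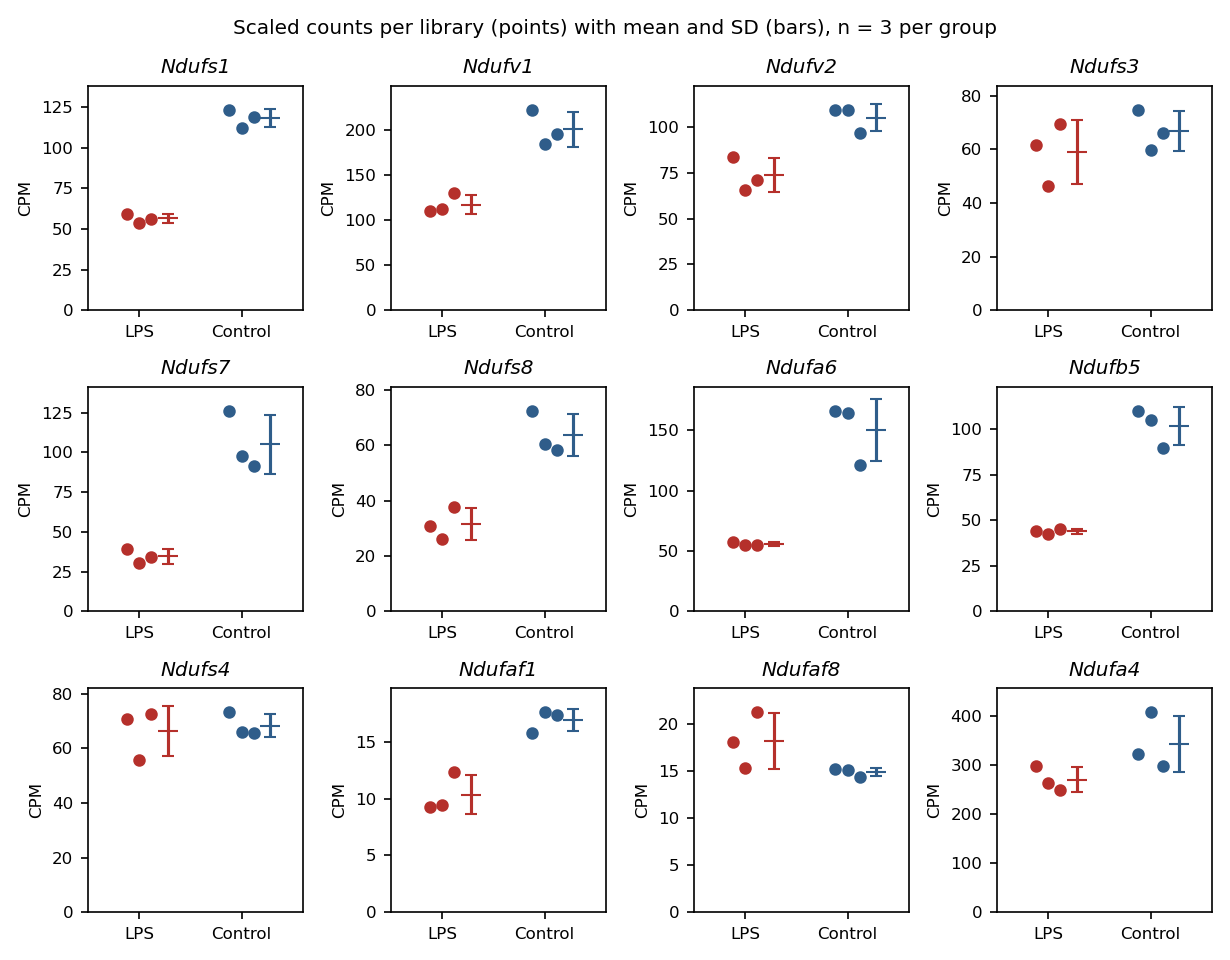
CPM per library (vertical axes, from 0) of nuclear core subunits and further Nduf genes in LPS and control livers, with mean and SD (n = 3 per group). The groups are apart for Ndufs7 (30.4 to 39.4 CPM in LPS livers, 91.3 to 126 CPM in control livers) and overlap for Ndufs3 and Ndufs4.

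Subunits of the membrane arm fell in both of its parts. In the distal part, built around the pumps ND4 and ND5, 10 of 11 genes fell, with a median of -0.64, and in the proximal part, next to the matrix arm, 6 of 10 fell, with a median of -0.48. The medians of the N and Q modules were -0.64 and -0.41. Among all tested genes the share that fell was 31.0%, and the differences between modules were not tested. Ndufb5, a single-pass membrane subunit of the distal part (chromosome 3, 32737057 to 32751559), had 44.3, 42.5 and 45.3 CPM in LPS livers, against 110, 105 and 89.9 CPM in control livers (-1.20, SE 0.12, adjusted p = 1.596e-06). Ndufb10 (-1.18), Ndufb2 (-1.05) and Ndufb4 (-1.01) also fell at least 2-fold, followed by Ndufb11 (-0.72), Ndufb6 (-0.64), Ndufb9 (-0.61), Ndufab1 (-0.48), Ndufb3 (-0.36) and Ndufb8 (-0.35). Groups overlapped for Ndufb6 and Ndufb8. The call of Ndufb6 ended without LPS replicate 2, that of Ndufb3 without LPS replicate 2 or 3 or control replicate 1 or 2, and that of Ndufb8 without LPS replicate 1 or 2 or control replicate 1 or 2. Ndufb8 (SE 0.15, adjusted p = 0.0494) also lost its call with DESeq2 and with the replicate number as a block. The one distal gene that did not pass was Ndufb7 (-0.32, SE 0.14, adjusted p = 0.0545). Ndufab1 is the mitochondrial acyl carrier protein, which also serves mitochondrial fatty acid synthesis (chromosome 7, 122086815 to 122101848). It had 43.3, 37.8 and 28.8 CPM in LPS livers and 42.1, 60.4 and 50.7 CPM in control livers, groups that overlapped (SE 0.17, adjusted p = 0.0216). Its call ended without LPS replicate 3, control replicate 2 or control replicate 3.

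In the proximal part of the membrane arm no gene fell 2-fold. The falls were those of Ndufc1 (-0.75), Ndufs5 (-0.62), Ndufa13 (-0.57), Ndufa9 (-0.57), Ndufa10 (-0.54) and Ndufa3 (-0.41), the last losing its call without LPS replicate 2, LPS replicate 3 or control replicate 2. Groups overlapped for Ndufa3. Ndufa9 was counted with this part by the gene list used here, and its place in the enzyme was not examined. Ndufa13 is also known as GRIM-19, a protein linked to cell death induced by interferon and retinoic acid, and it had 94.5 ± 2.35 CPM in LPS livers and 140 ± 14.7 CPM in control livers (SD, n = 3 each). Ndufa11 (-0.28), Ndufa8 (-0.26), Ndufc2 (-0.17) and Ndufa1 (-0.07) did not pass. All of these were called lower in the fit with offsets for GC content and transcript length. Ndufa1, encoded on the X chromosome, had 84.7, 62.9 and 69.8 CPM in LPS livers and 81.5, 85.3 and 61.5 CPM in control livers. Its groups overlapped.

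Per kilobase of annotated transcript, the structural subunits spanned a wide range of levels. Ndufab1 was the lowest in both groups, with 10.5 CPM per kilobase in LPS livers and 14.7 in control livers. Ndufa2 was the highest in LPS livers, at 214 CPM per kilobase (226 in control livers), and Ndufa6 the highest in control livers, at 255 CPM per kilobase (94.5 in LPS livers). These levels rest on 1 transcript per gene, of 3479 bases for Ndufab1, 572 for Ndufa2 and 590 for Ndufa6, and on an even cover of reads along it. Neither length nor level ordered the changes closely. Across the 36 structural genes, the log2 fold change had a Spearman rho of -0.16 with transcript length, -0.14 with the control level in CPM and -0.19 with GC content, as a description over genes that share the same libraries. Of the 18 shorter transcripts 13 fell, and of the 18 longer ones 14 fell, where 31.0% of all tested genes fell.

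The libraries kept a similar order across subunits. This order was not counted over all tested genes, so it may be shared by genes outside the subunits. Control replicate 3 was the lowest control library in 27 of 36 structural genes, and LPS replicate 2 was the highest LPS library in 0 of them. Taken as the median over the 36 genes of the log2 ratio to the control mean, the LPS libraries stood at -0.48, -0.66 and -0.54 and the control libraries at 0.10, 0.07 and -0.17. The groups did not overlap on this measure.

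**Figure D3:**
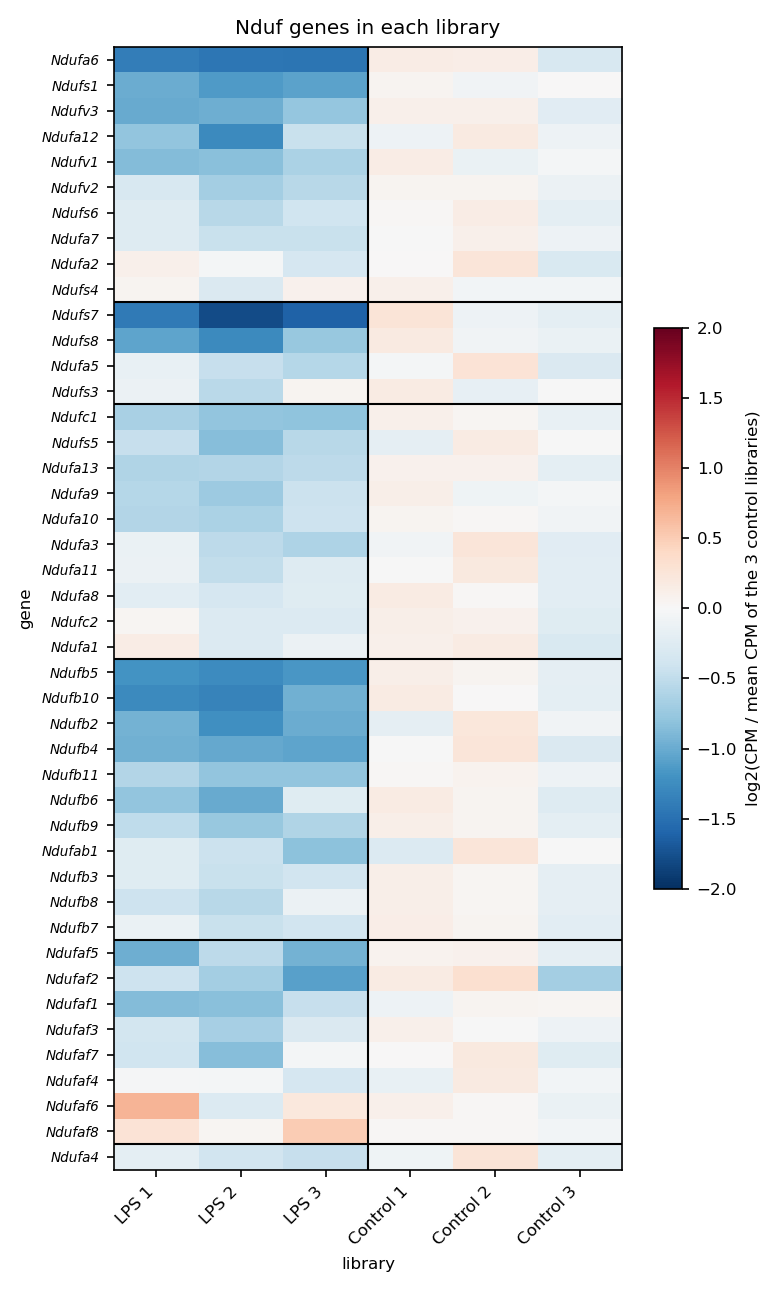
Level of the tested Nduf genes described by name (rows, grouped as in the plot of changes) in each library (columns), as the log2 ratio of its CPM to the mean of the 3 control libraries. LPS libraries are mostly blue (lower), with medians over structural genes of -0.48, -0.66 and -0.54, and the rows of Ndufs4, Ndufa2 and Ndufaf8 are pale or red.

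Assembly factors of the Ndufaf family went both ways in their fitted values, and most did not pass the threshold. Of 8 genes, all tested, 2 fell (Ndufaf1 and Ndufaf2) and 0 rose, with edgeR and with DESeq2 alike, a share of lower genes near the 31.0% of all tested genes. At an unadjusted p under 0.05, 4 were lower and 0 higher in edgeR. The median was -0.41, and summed levels were 90.4 ± 7.45 CPM in LPS livers and 105 ± 9.31 CPM in control livers (SD, n = 3 each), or 85.9% of the control mean. The structural subunits stood at 66.5% on the same measure, a difference that was not tested. Standard errors of the assembly factors ran from 0.14 to 0.36.

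Ndufaf1 joins the complex that builds the proximal membrane arm (chromosome 2, 119655446 to 119662839). It had 9.30, 9.42 and 12.3 CPM in LPS livers, against 15.8, 17.6 and 17.3 CPM in control livers (-0.70, SE 0.18, adjusted p = 0.00321), with the groups apart. Ndufaf2, a relative of Ndufa12 that occupies its place late in assembly (chromosome 13, 108052589 to 108158652), had 8.70, 7.24 and 5.42 CPM in LPS livers and 13, 14.5 and 7.18 CPM in control livers. Its groups overlapped, since control replicate 3 was lower than LPS replicates 1 and 2 (-0.71, SE 0.27, adjusted p = 0.0355). The call of Ndufaf2 ended without LPS replicate 2, LPS replicate 3, control replicate 1 or control replicate 2.

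Ndufaf5 and Ndufaf8 work as a pair in human cells, where NDUFAF8 stabilises NDUFAF5, the enzyme that hydroxylates an arginine of NDUFS7. Ndufaf5 had 1.54, 2.11 and 1.57 CPM in LPS livers and 3.20, 3.21 and 2.69 CPM in control livers (-0.80, SE 0.36, adjusted p = 0.0653). Ndufaf8 had 18.1, 15.3 and 21.3 CPM in LPS livers and 15.2, 15.1 and 14.4 CPM in control livers (0.29, SE 0.16, adjusted p = 0.137). LPS libraries were all lower for Ndufaf5 and all higher for Ndufaf8, and neither passed. Over all tested genes 34.0% had every LPS library above every control library. Ndufaf3 and Ndufaf4, which accompany the early Q module together, had changes of -0.43 (SE 0.20, adjusted p = 0.0751) and -0.13 (SE 0.14, adjusted p = 0.453). Ndufaf3 had 7.93, 6.47 and 8.41 CPM in LPS livers and 11.0, 10.2 and 9.62 CPM in control livers, and Ndufaf4 had 28.7, 28.3 and 23.1 CPM in LPS livers and 26.3, 32.9 and 28 CPM in control livers. Groups overlapped for Ndufaf4 but not for Ndufaf3.

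Ndufaf7, a mitochondrial arginine methyltransferase, had 8.36, 6.12 and 10.7 CPM in LPS livers and 11.1, 12.6 and 9.30 CPM in control livers (-0.39, SE 0.23, adjusted p = 0.154). Ndufaf6, an early factor that resembles phytoene and squalene synthases, had 13.8, 7.10 and 9.98 CPM in LPS livers and 9.20, 8.71 and 7.82 CPM in control livers (0.26, SE 0.24, adjusted p = 0.363). The groups of both genes overlapped, and the positive value of Ndufaf6 was -0.03 without LPS replicate 1.

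Complex I assembly factors outside the Nduf name changed in both directions. Of 13 tested, 5 fell and 1 rose, with a median of -0.37, where 31.0% of all tested genes fell and 31.3% rose. Ecsit, an assembly factor that also takes part in Toll-like receptor signalling, had 6.99 ± 0.666 CPM in LPS livers and 22.0 ± 1.93 CPM in control livers (-1.66, SE 0.17, adjusted p = 1.626e-06, SD, n = 3 each). Aifm1, a flavoprotein of the intermembrane space needed for respiratory chain assembly, fell too (-1.41, SE 0.15). The other genes that fell, named after their values were seen, were Timmdc1 (-2.07, SE 0.36), Tmem126b (-1.20) and Acad9 (-1.02). In human cells NDUFAF1, ECSIT, ACAD9 and TMEM126B are among the members of 1 complex, named MCIA, that builds the proximal membrane arm. Not every listed gene tied to MCIA fell: Tmem186 did not pass (0.20, SE 0.18, adjusted p = 0.347), and Coa1 was not analysed. Foxred1, a flavoprotein that acts late in assembly, had 58.7 ± 2.25 CPM in LPS livers and 34.8 ± 2.94 CPM in control livers and rose (0.76, SE 0.12, adjusted p = 9.549e-05, SD, n = 3 each). Those 6 calls held in all 14 other settings.

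Ndufa4 and its paralogue Ndufa4l2 bear the family name, but Ndufa4 has been reassigned to complex IV and Ndufa4l2 is known as a hypoxia-induced protein. Ndufa4 (chromosome 6, 11900372 to 11907450) had 298, 263 and 249 CPM in LPS livers and 323, 408 and 298 CPM in control livers (-0.35, SE 0.14, adjusted p = 0.0476). Control replicate 3 and LPS replicate 1 were level at this rounding, and the call ended without LPS replicate 2, LPS replicate 3 or control replicate 2. Ndufa4l2 did not pass the filter. It had 0, 0 and 2 counts in LPS libraries against 6, 14 and 4 counts in control libraries, a scaled LPS over control ratio of 0.102 (95% exact interval 0.0117 to 0.411, counting error only). With no filter edgeR gave it -3.09 (SE 1.54, adjusted p = 0.0940).

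The mitochondrially encoded subunits, which form the core of the membrane arm, were also lower or did not pass. Of 7 genes 4 fell and 0 rose with edgeR (none higher at an unadjusted p under 0.05, and 0 higher with DESeq2), with a median of -0.67. Over all tested genes 31.0% fell and 31.3% rose. The call of ND1 (-0.42, SE 0.14, adjusted p = 0.0199) ended without LPS replicate 2 or control replicate 2. ND2 (listed as mt-Nd2) had 3318, 3144 and 3728 CPM in LPS livers, against 6226, 7445 and 6334 CPM in control livers (-0.97, SE 0.15, adjusted p = 5.428e-05), and ND4 fell by 0.77 (SE 0.14). All 13 mitochondrial protein genes in the tables together took 2.44% to 2.85% of counts in LPS libraries and 3.90% to 4.32% in control libraries. ND3 and ND4L had at most 3.49 CPM in any LPS library and 4.18 CPM in any control library, and the labels do not state how multi-mapping reads were counted.

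Other mitochondrial gene lists differed in their share of lower genes, and these differences were not tested. Of 38 nuclear subunits of complexes II to V 27 fell and 0 rose with edgeR, with a median of -0.57 beside the -0.55 of complex I, and the smallest adjusted p values were those of the ATP synthase subunits Atp5o (-1.18, SE 0.12) and Atp5d (-1.13, SE 0.13). Of 17 genes of mitochondrial import and membranes 9 fell and 0 rose (1 was higher at an unadjusted p under 0.05 in edgeR, 0 in DESeq2), with a median of -0.37, among them the fusion protein Mfn2 (-1.41) and the outer membrane channel Vdac1 (-0.91). Of 77 tested mitochondrial ribosomal protein genes, a list added after the data were seen, 25 fell and 11 rose, with a median of -0.17. The share that fell is near the 31.0% of all tested genes, which stands beside the other counts of lower genes too, and the share that rose is below the 31.3% of all tested genes.

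**Figure D4:**
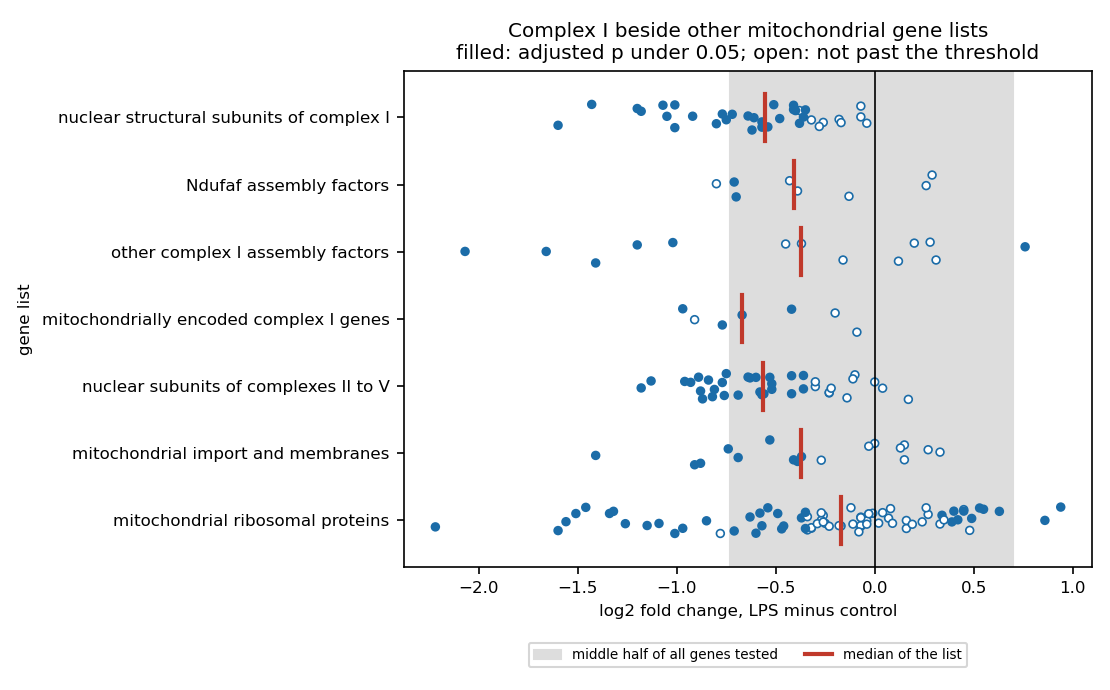
Log2 fold change (LPS minus control, horizontal axis) of each gene in 7 mitochondrial gene lists, with the list median as a red bar and the range between the quartiles of all tested genes (-0.73 to 0.70) in grey. Filled points passed the adjusted p threshold of 0.05. The medians of complex I and of complexes II to V, -0.55 and -0.57, lie close together, and that of the ribosomal proteins is -0.17.

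Regulators known to act on respiratory chain genes changed in both directions, 6 falling and 4 rising of 13 tested, where 31.0% of all tested genes fell and 31.3% rose. The rise of Gabpa (0.33, SE 0.13, adjusted p = 0.0342), another GABP subunit, was lost in 8 of the 14 other settings, among them library totals, no filter and DESeq2, and without LPS replicate 1 or 2 or any 1 control replicate. Ppargc1a (PGC-1 alpha), a coactivator of mitochondrial gene programmes, had 6.99, 4.92 and 6.13 CPM in LPS livers, against 15.2, 32.4 and 21.2 CPM in control livers (-1.94, SE 0.26, adjusted p = 1.872e-05), and its partner receptor Esrra fell (-0.91, SE 0.21). Gabpb1, a subunit of the ETS factor GABP, rose (1.59, SE 0.17), as did the PGC-1 family member Pprc1 (1.29, SE 0.17). Nrf1, the factor that binds the NRF1 motif, had 22.1 ± 2.26 CPM in LPS livers and 11.8 ± 1.94 CPM in control livers and rose (0.90, SE 0.17, adjusted p = 3.954e-04), while Yy1 had a change of -0.23 (SE 0.13, adjusted p = 0.144). Nrf1, Yy1 and Gabpa were named after their values were seen.

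Motifs of these factors were looked for in RefSeq promoters (GRCm38.p6), taken as 250 bases before to 50 bases after a start, on both strands. Such windows exist in the table used here for 40 of the 46 genes. The NRF1 motif was searched as GCGCA, any base and GCGC, the ETS motif as CCGGAAG, the YY1 motif as AAGATGGC and the ERR motif as TCAAGGTCA, and no matches of different motifs overlapped in these genes. NRF1 matched in 22.5% of the Nduf genes with a window, against 5.19% of all 27025 genes with one. Unlike the tested genes used for other shares, this comparison set also holds genes that were not tested here. The YY1 match was in 20% of Nduf genes and 3.19% of all genes, the ETS match in 15% and 9.93%, and the ERR match in 0 of 40 Nduf genes and 0.466% of all genes. Matches occurred in genes that fell and in genes that did not: NRF1 in 4 of 24 structural genes that fell and 3 of 8 that did not pass, YY1 in 6 of 24 and 1 of 8, and ETS in 2 of 24 and 2 of 8. A match describes the letters and does not show a bound site.

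The stretches below set, for each motif, a subunit that fell beside one that did not pass, with the match in capitals and 30 bases shown in the direction of transcription. Both YY1 matches lie just after the RefSeq start of the window, which for Ndufs7 is not the start of the gene span given above, at base 25 for Ndufs7 (log2 fold change -1.60, chr10:80249462-80249491, plus strand) and base 36 for Ndufs4 (-0.04, chr13:114388045-114388074, minus strand). The NRF1 matches are those of Ndufa6 (-1.43, chr15:82354249-82354278, minus strand) and Ndufa8 (-0.26, chr2:36049349-36049378, minus strand), and the ETS matches those of Ndufs8 (-1.01, chr19:3912741-3912770, minus strand) and Ndufs3 (-0.18, chr2:90904730-90904759, minus strand). In Ndufa6, Ndufa8 and Ndufs8 the motif reads on the strand opposite to the one printed, so the capitals show its reverse complement.
Ndufs7, YY1: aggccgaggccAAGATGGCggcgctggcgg
Ndufs4, YY1: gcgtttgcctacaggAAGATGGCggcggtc
Ndufa6, NRF1: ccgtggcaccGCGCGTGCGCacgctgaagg
Ndufa8, NRF1: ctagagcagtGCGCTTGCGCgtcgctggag
Ndufs8, ETS: ttaggctccgcCTTCCGGttgaaccgcatc
Ndufs3, ETS: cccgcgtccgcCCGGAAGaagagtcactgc
Ndufb4 (-1.01) was the one member with 3 NRF1 matches, all before its start, and the 250 bases before it (chr16:37654369-37654618, minus strand) are shown with the matches in capitals.
Ndufb4, upstream: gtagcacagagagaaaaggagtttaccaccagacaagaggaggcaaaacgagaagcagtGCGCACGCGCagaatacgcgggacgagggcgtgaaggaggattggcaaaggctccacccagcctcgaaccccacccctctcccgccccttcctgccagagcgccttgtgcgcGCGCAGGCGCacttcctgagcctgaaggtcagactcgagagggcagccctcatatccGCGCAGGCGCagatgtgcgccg
It had 23.5, 22.4 and 22.1 CPM in LPS livers and 45.5, 54.0 and 37.5 CPM in control livers (SE 0.15, adjusted p = 3.921e-05).

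Some counts may be shared with other genes. The reference lists near copies without a row of their own in the tables for Ndufa11, Ndufa12, Ndufab1, Ndufb4, Ndufs5 and Ndufs6, so the values of these 6 genes are uncertain. A further 7 of the 46 genes overlap another listed gene on the chromosome, among them Ndufv2, Ndufa13, Ndufb11, Ndufa1, Ndufa2 and Ndufa4l2, and the labels do not state whether counting used strand.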

How the data were processed

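Total RNA of whole livers was sequenced in 6 libraries, 3 LPS and 3 control, grouped by the submitters' labels. The deposited values are whole-number counts per gene, 1 table per library with 22488 genes, not normalised by the authors. The submitters' processing notes list the mouse build mm10 and, with no role for each, HISAT2, StringTie, bcl2fastq 2.0, limma and DESeq2. Counting tool, annotation, strand setting and handling of multi-mapping reads are not given in the sources used here. Genes were named by Entrez identifier for 20722 rows.

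Counts were fitted with edgeR 4.0.16 (R 4.3.3, quasi-likelihood, TMM scaling, filterByExpr with a minimum count of 10 and a minimum total of 15) on all 12078 genes passing the filter, with Benjamini-Hochberg adjustment over all of them and a threshold of 0.05. CPM uses the TMM-scaled library sizes of the deposited counts. DESeq2 1.42.0 was an alternative, beside other scalings, no filter, a replicate block, GC and length offsets and each library left out. The procedure was tested on simulated data. Nothing in the labels says that the libraries are separate mice, so p values measure the spread between these samples, which may be technical.

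The members and gene lists were chosen with earlier results of these data known. Named genes were the core subunits, the 4 structural genes with the smallest adjusted p in each direction, all tested Ndufaf genes, Ndufa4, Ndufa4l2, the structural genes with the highest and lowest level per kilobase, and in other lists the 2 smallest adjusted p values in each direction. Further names were chosen after their values were seen, and 1 structural gene is counted in the totals but not reported here by name. Coordinates are from RefSeq annotation of GRCm38.p6, and transcript lengths and GC content are from GENCODE M21.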

Additional observations from a re-analysis of the deposited data

How the results depend on the processing

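The count of structural subunits that fell was 27, and 28 with DESeq2 size factors, 30 with library totals, 29 with no filter, 26 with the DESeq2 test, 34 with GC and length offsets and 29 without mitochondrial genes, a setting chosen after seeing the data. Leaving out 1 library gave 21 (without LPS replicate 2) to 30 (without control replicate 3), and no setting called a structural subunit higher. The median over them ran from -0.66 to -0.49 in these fits, and 20 structural subunits and 1 assembly factor were called lower in all 15 fits. Counting Ndufa4 and Ndufa4l2 as structural gave 28 of 38. Over all tested genes 3747 fell in the main fit, 3756 with DESeq2 size factors and 3981 with library totals. With no filter 4002 of 16182 tested genes fell. With the DESeq2 test 3701 fell, with GC and length offsets 3811 and without mitochondrial genes 3784. The count of Ndufaf genes that fell was 2, and 3 with library totals or offsets, and it ran from 1 (without LPS replicate 2, control replicate 1 or control replicate 2) to 2 when 1 library was left out. Their median ran from -0.26 without LPS replicate 2 to -0.52 without LPS replicate 3. Signs changed for 4 genes that passed in none of the fits with a library left out. Over those fits Ndufaf6 ran from -0.03 (without LPS replicate 1) to 0.47, Ndufs4 from -0.11 to 0.07 (without LPS replicate 2, and 0.01 without control replicate 1), Ndufa2 from -0.22 to 0.05 (without LPS replicate 3, and 0.04 without control replicate 2) and Ndufa1 from -0.22 to 0.02 (without LPS replicate 2). Over all 14 other settings the lowest values were -0.53 for Ndufa1, -0.36 for Ndufa2, -0.17 for Ndufs4 and -0.03 for Ndufaf6. Ndufc1 went from -0.75 in the main fit to -1.26 with GC and length offsets. The causes of these differences were not tested. Replicate numbers are shared by the groups, but same-numbered libraries deviated together in no clear way (correlations of -0.000745, 0.104 and 0.0352), so the numbers were not taken as pairs. With the replicate block 28 structural subunits and 2 Ndufaf genes fell, and with block and offsets 34 and 3. Ndufb8 lost its call with the block, and Ndufb7 and Ndufa5 gained one. Low counts limit Ndufaf5 and Ndufa4l2 most.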
